A study of Drosophila melanogaster with 6 samples.

Results

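The X chromosome of Drosophila melanogaster S2 cells carried 1346 ROW peaks and 776 BEAF-32 peaks, 2122 of the 13569 intervals in the ROW and BEAF-32 lists together. Every row of either list that lies on the X was taken, whatever its strength, and the arms 2L, 3L and 3R, with 5115 ROW and 2767 BEAF-32 peaks, served for comparison. S2 is a male line of embryonic origin with features of blood cells. All 6 samples are S2 cultures for which the labels give no genotype or treatment beyond the prefix con, shared by all titles and not explained there. Chromatin of sonicated nuclei was pulled down with an antibody against ROW in 3 samples and with one against BEAF-32 in the other 3, and the bound DNA was barcoded and sequenced. One peak list was deposited for each antibody, so values of single samples were not analysed here, and no spread between replicates can be given.

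BEAF-32 is an insulator protein: it binds short DNA elements at the borders of chromatin domains, mostly close to the start sites of active genes, and it helps to keep neighbouring domains apart. ROW, a zinc-finger protein, is a partner of HP1c and WOC, with which it also sits near the starts of active genes. In male flies the X has a chromatin state of its own, because the MSL dosage compensation complex spreads over its active genes and raises their transcription. A male line also holds fewer copies of the X than of the autosomes.

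The lists give 3 kinds of evidence for each interval: its position on the genome build dm3, its fold enrichment at the summit (signal over local background), and the p-value of the summit. Fold and p together fixed 2 further quantities, the pileup, which is the number of fragments stacked over the summit, and the local background in the same unit. For all 1346 ROW and all 776 BEAF-32 peaks on the X, a single whole pileup met the deposited fold and p, and −log10 p was met to within 0.000591 (ROW) and 0.000477 (BEAF-32). The smallest background was 22.5 fragments in the ROW list and 16.4 fragments in the BEAF-32 list, the same on each of the 4 arms. On the X 37.5% of ROW peaks stood on this lowest level, against 29.1% on 2L, 33.0% on 3L and 32.5% on 3R. For BEAF-32 the share was 32.3% on the X, against 33.7%, 39.2% and 33.4% on 2L, 3L and 3R. The weakest pileup called on the X was 42 fragments for ROW and 32 for BEAF-32, close to the lowest of the other arms, 38 and 31 fragments. Pileups from pooled cells do not separate the number of X copies from binding per copy, and these cannot be told apart here.

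Both proteins sat along the whole X, and ROW was somewhat sparser there than on the autosomal arms. ROW had 60.0 peaks per Mb on the X, against 67.2 on 2L, 69.9 on 3L and 66.5 on 3R. The X thus lay below all 3 arms, at 0.885 times their joint density (95% interval 0.833 to 0.940). BEAF-32 had 34.6 peaks per Mb on the X, against 35.0 on 2L, 36.8 on 3L and 37.9 on 3R, a ratio of 0.944 (0.870 to 1.02) whose interval includes equal density. Lengths of arms were counted from the first base to the end of the last peak of either list, which gives 22.4 Mb for the X. These intervals, and all that follow, cover counting error only and treat peaks as independent, so they can be too narrow. An exact permutation test with the 4 arms as units, X against 3, cannot go below p = 0.25 one-sided, so no p-values are given for the arms.

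Weak and very strong ROW peaks were the ones sparser on the X. ROW peaks with −log10 q under 10 numbered 179 on the X, or 7.99 per Mb, against 16.004 per Mb on 2L, 14.7 on 3L and 12.9 on 3R. At −log10 q of at least 10 the X had 52.1 ROW peaks per Mb, against 51.2 on 2L, 55.2 on 3L and 53.6 on 3R, and the ratio of the X to the 3 arms was 0.975 (0.913 to 1.04). For ROW peaks of any strength, but without the outermost 2 Mb at each end of every arm, the ratio was 0.977, within counting error of 1. At the top, 41 ROW peaks on the X reached 16-fold enrichment, 3.05% of its ROW peaks, against 4.33% on 2L, 5.43% on 3L and 5.28% on 3R. Per Mb this was 0.535 times the density of the 3 arms (0.375 to 0.746).

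Strong BEAF-32 peaks were about as dense on the X as on the arms. On the X 272 of 776 BEAF-32 peaks, or 35.1%, reached 16-fold enrichment, against 30.1% on 2L, 27.9% on 3L and 33.2% on 3R, and their density was 1.08 times that of the arms (0.941 to 1.24). Weak BEAF-32 peaks were fewer on the X, as weak ROW peaks were. Those with −log10 q under 10 numbered 67 on the X, or 2.99 per Mb, against 4.87 on 2L, 5.30 on 3L and 4.66 on 3R.

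Sorting by pileup in place of fold gave more detail. Fold enrichment reached at most 27.4 for ROW and 34.1 for BEAF-32 on the X, and among X peaks above the lowest background the background itself was higher where the pileup was higher (Spearman's rho 0.49 over 841 ROW peaks and 0.71 over 525 BEAF-32 peaks, given as a description). Peaks were therefore also sorted by the quartiles of pileup on 2L, 3L and 3R. In the highest quartile, above 360.5 fragments, the X had 258 ROW peaks, 11.5 per Mb, against 16.8 on 2L, 16.5 on 3L and 17.5 on 3R, a ratio of 0.679 (0.591 to 0.776). In the third quartile it had 459 ROW peaks, 20.5 per Mb, against 15.5, 17.0 and 17.9 on 2L, 3L and 3R, a ratio of 1.22 (1.09 to 1.35). In the lowest quartile, up to 74 fragments, it had 242 ROW peaks and a ratio of 0.633 (0.550 to 0.727). ROW peaks on the X were thus bunched at middling heights.

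BEAF-32 peaks on the X were also most over-represented in the third quartile. The third quartile of BEAF-32 pileup, above 203 and up to 893.5 fragments, held 273 peaks on the X, 12.2 per Mb, against 9.83 on 2L, 8.23 on 3L and 9.39 on 3R, a ratio of 1.33 (1.15 to 1.53). The highest quartile held 192 peaks, 8.57 per Mb, between the 8.05 of 2L and the 10.8 of 3R, and the ratio was 0.934 (0.791 to 1.10). The lowest quartile, up to 75 fragments, held 142 peaks at a ratio of 0.688 (0.571 to 0.826). Of the 1000 ROW peaks with the highest pileup in the whole list 94 were on the X, a share of 9.40% (7.74 to 11.4), while the X held 15.3% of all ROW peaks. Of the 1000 highest BEAF-32 pileups 158 were on the X, 15.8% (13.7 to 18.2), against 16.2% of all BEAF-32 peaks. Among the 100 highest ROW pileups the X held 8, or 8% (4.11 to 14.998), an interval below 15.3%. Among the 100 highest BEAF-32 pileups it held 9, or 9% (4.81 to 16.226). That interval ends just below the 16.231% of all BEAF-32 peaks. By fold enrichment the X held 135 of the 1000 strongest ROW peaks, 13.5% (11.5 to 15.8), an interval that includes 15.3%. Among the 100 strongest ROW peaks by fold it held 7, or 7% (3.43 to 13.7). Of the 1000 strongest BEAF-32 peaks by fold 190 were on the X, 19% (16.7 to 21.5), an interval above 16.2%. For the 100 strongest it was 17% (10.9 to 25.5). These ranks cover the whole lists, so they include sequences outside the X, 2L, 3L and 3R.

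**Figure D1:**
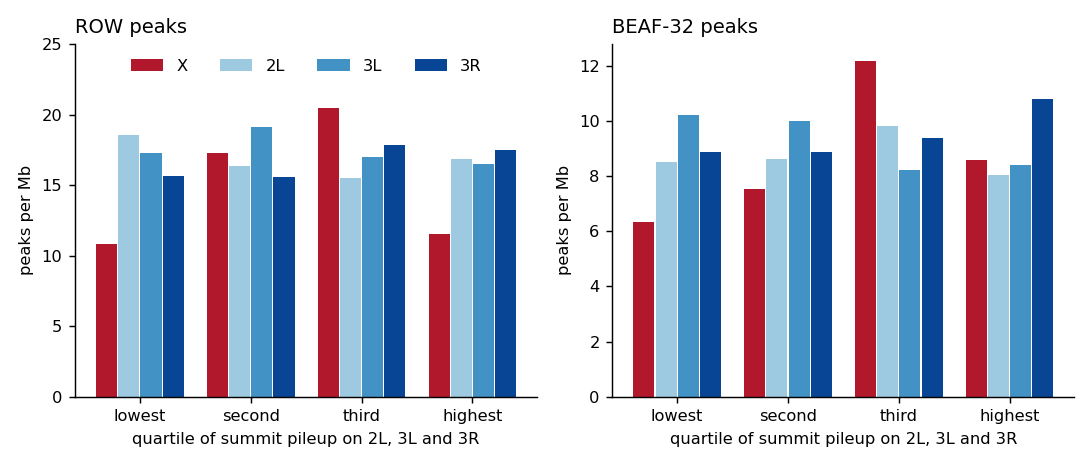
Peaks per Mb (vertical axes) in each quartile of summit pileup, with quartile limits from 2L, 3L and 3R, for ROW (left) and BEAF-32 (right); bars stand for the X and the 3 autosomal arms. In the highest quartile the X had 11.5 ROW peaks per Mb, below all 3 arms, and 8.57 BEAF-32 peaks per Mb, within their range.

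Median strength on the X was higher than on the arms in both lists. Median ROW fold enrichment was 4.67 on the X (95% interval 4.42 to 4.89), against 4.12 (4.02 to 4.24) on the 3 arms together, a log2 ratio of 0.18. It was 4.02 on 2L, 3.99 on 3L and 4.39 on 3R, and the X interval met that of 3R (4.12 to 4.67). Restricted to −log10 q of 10 or more, the log2 ratio to the 3 arms together was -0.08, and its interval, -0.13 to 0.04, includes 0. The median ROW pileup was 157.5 fragments on the X, against 136 on 2L, 136 on 3L and 157 on 3R, so the X did not stand out from 3R. Median BEAF-32 fold enrichment was 10.4 on the X (8.80 to 11.8), against 7.38 on 2L, 6.70 on 3L and 8.58 on 3R, a log2 ratio of 0.49 to the 3 arms together. The X interval met that of 3R (7.22 to 9.50). With BEAF-32 peaks restricted to −log10 q of 10 or more, the log2 ratio was 0.28 (0.12 to 0.45). Intervals of log2 ratios carry the counting error of the X median only and take the median of the arms as exact, so they are too narrow. The median BEAF-32 pileup was 319 fragments on the X (271 to 395), against 216, 164 and 240 on 2L, 3L and 3R.

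Peak widths on the X were close to those of the arms. The median width was 555 bp for ROW on the X (540 to 576), against 572.5 bp on 2L, 571 bp on 3L and 581 bp on 3R. For BEAF-32 it was 572 bp on the X (556 to 589), against 563, 548.5 and 577 bp. Widths ran from 278 to 2807 bp for ROW and from 269 to 2069 bp for BEAF-32 on the X. ROW peaks covered 3.91% of the X, against 4.48% of 2L, 4.57% of 3L and 4.29% of 3R, and BEAF-32 peaks covered 2.06% of the X, against 2.04%, 2.11% and 2.25%. Among ROW peaks of the highest pileup quartile the median width was 753 bp on the X (721 to 807), against 715 bp on 2L, 698 bp on 3L and 693 bp on 3R. This X interval met those of 2L (688 to 756) and 3L (677 to 724). In the highest quartile of fold the median was 726.5 bp on the X (703 to 759), against 712.5, 713 and 701 bp on 2L, 3L and 3R.

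The 2 proteins were dense and sparse in the same stretches of the X. Over its 22 full windows of 1 Mb, ROW counts ran from 33 to 93 peaks with a median of 63, and BEAF-32 counts ran from 19 to 53 with a median of 37. Pearson's r between the counts of the 2 lists was 0.86 and Spearman's rho 0.82 over these 22 windows, against r of 0.89, 0.84 and 0.88 on 2L, 3L and 3R. These are descriptions, since windows of one arm come from the same 2 lists and are not independent. The X was the most even arm for BEAF-32: the coefficient of variation of its windows was 28.5%, against 48.0% on 2L, 35.5% on 3L and 37.6% on 3R. For ROW it was 26.5% on the X, against 41.5%, 25.8% and 31.9%.

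The densest ROW window was 3000001 to 4000000, with 93 ROW and 50 BEAF-32 peaks. It was followed by 6000001 to 7000000 with 82 ROW peaks and by 11000001 to 12000000 with 77. BEAF-32 was densest from 15000001 to 16000000, with 53 peaks, and next from 3000001 to 4000000 and from 1000001 to 2000000, with 50 and 48. The window with the fewest of both lay between 18000001 and 19000000, with 33 ROW and 19 BEAF-32 peaks. The other sparse ROW windows were the first Mb of the arm and 20000001 to 21000000, with 37 peaks each, and the other sparse BEAF-32 windows were the last 2 full ones, with 22 peaks each. Sparse windows thus included both ends of the arm and an inner stretch.

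Long stretches free of both proteins took up more of the X than of the other arms. Stretches of at least 50 kb without a peak of either list numbered 98 and summed to 45.9% of the X, against 39.4% of 2L, 38.4% of 3L and 40.8% of 3R. The longest on the X was 433 kb, from 11923722 to 12356431, and 2L had a longer one of 462 kb. The next on the X lay from 14141932 to 14474332 (332 kb) and from 20632168 to 20899291 (267 kb). The median distance from one ROW summit to the next, free stretches included, was 6088 bp on the X, against 6714 bp on 2L, 6400 bp on 3L and 6511.5 bp on 3R. For BEAF-32 it was 10512 bp on the X, against 9316, 10218 and 9571 bp.

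**Figure D2:**
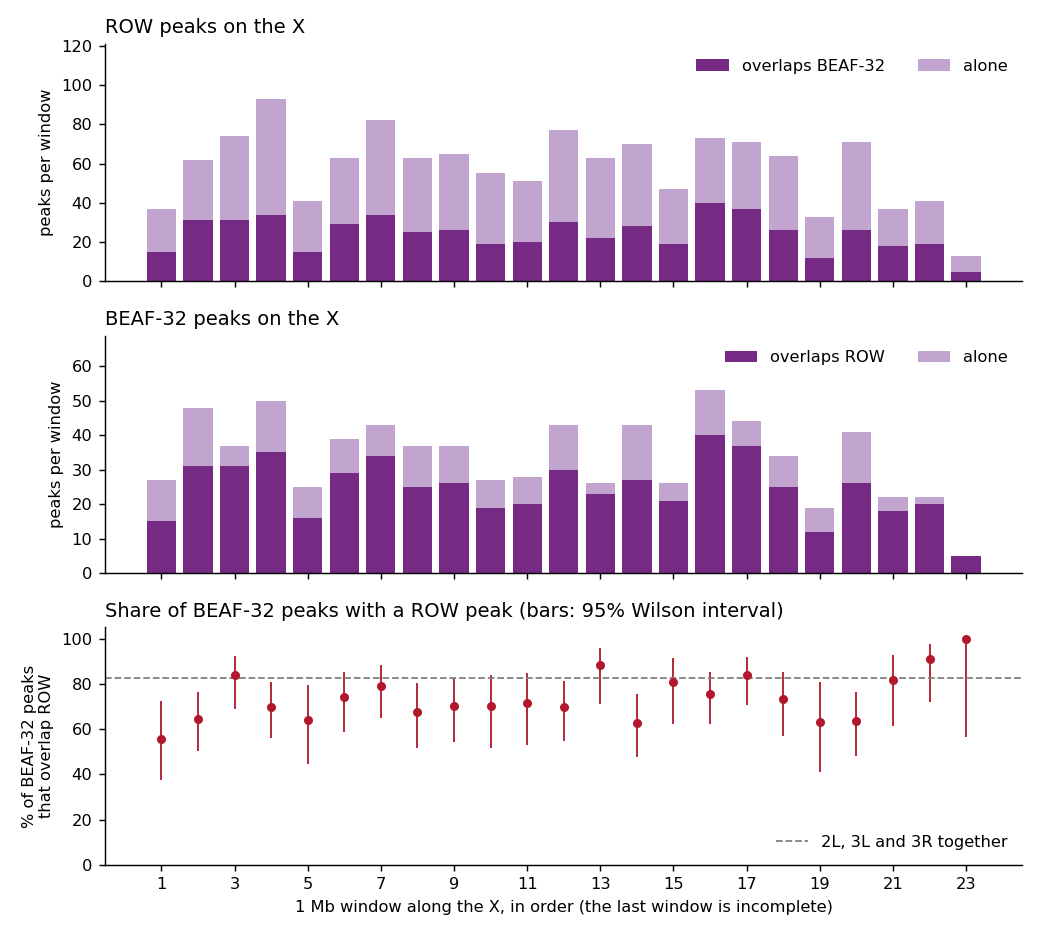
ROW peaks (top) and BEAF-32 peaks (middle) in each 1 Mb window of the X in order along the arm, divided into peaks that overlap the other protein and peaks alone, and the share of BEAF-32 peaks that overlap ROW (bottom) with 95% Wilson intervals. ROW counts ran from 33 to 93 in full windows, and the share of shared BEAF-32 peaks lay below the dashed level of the 3 arms in 17 of 21 windows with at least 20 BEAF-32 peaks and a full length.

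A BEAF-32 site on the X lacked a ROW peak more often than one on the autosomal arms. Of the 776 BEAF-32 peaks on the X 565 overlapped a ROW peak by 1 bp or more and 211 did not, a share of 72.8% (69.6 to 75.8), against a background of 82.8% on 2L, 3L and 3R together. The single arms were close to each other, at 82.9% on 2L, 82.0% on 3L and 83.4% on 3R. The X minus the 3 arms was -9.95 percentage points (-13.5 to -6.61), and it was -10.05, -9.16 and -10.6 points against 2L, 3L and 3R taken alone, each with an interval below 0. An overlap needs a called ROW peak, and ROW peaks with −log10 q under 10 were 0.553 times as dense on the X as on the arms. With both lists held to −log10 q of at least 10 the difference was -8.78 points (-12.7 to -5.05). What part the number of X copies has in which ROW peaks were called was not tested. Per Mb, BEAF-32 peaks without ROW were 1.49 times as dense on the X (1.26 to 1.75), at 9.41 against 6.001, 6.64 and 6.31 on 2L, 3L and 3R. BEAF-32 peaks with ROW were 0.830 times as dense (0.756 to 0.911), at 25.2 per Mb against 29.0, 30.2 and 31.6.

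Seen from ROW, the difference was smaller and depended on which peaks were counted. Of 1346 ROW peaks 561 overlapped BEAF-32 and 785 did not, a share of 41.7% (39.1 to 44.3), against a background of 44.3% on the 3 arms. The difference was -2.64 percentage points with an interval of -5.58 to 0.339, which includes 0. It was larger, with an interval below 0, where both lists were held to −log10 q of at least 10 (-4.19 points, -7.38 to -0.955) or to 4-fold or more (-6.55 points, -10.4 to -2.57), and without the outermost 2 Mb of each arm end (-3.52 points, -6.69 to -0.318). The shares were 42.6% on 2L, 42.5% on 3L and 47.4% on 3R, so the X was apart from 3R (-5.71 points, -9.17 to -2.22) and within counting error of 2L and 3L.

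The lower share among BEAF-32 peaks was seen at low and high strength. Within quartiles of BEAF-32 fold enrichment, 59.5% of the weakest X peaks overlapped ROW, against 75.9% on the arms, a difference of -16.4 percentage points (-25.05 to -8.17). In the second quartile the share was 63.4% on the X, against 79.5%, a difference of -16.1 points (-23.9 to -8.57). In the third it was 79.7% on the X, against 84.6%, and that interval, -11.1 to 0.623, includes 0. In the highest quartile, above 18.3-fold, it was 81.9% on the X, against 91.04%, a difference of -9.18 points (-15.04 to -4.12). With the X peaks weighted like those of the arms over these quartiles, the X share was 71.1%, against 72.8% unweighted.

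Sorted by pileup in place of fold, the tallest BEAF-32 peaks were the exception. Above 893.5 fragments 92.2% of BEAF-32 peaks on the X overlapped ROW, against 93.1% on the arms, a difference of -0.876 points (-5.84 to 2.83). In the third quartile of pileup the difference was -11.9 points (-18.2 to -6.01), in the second -9.65 points (-17.6 to -2.38), and in the lowest, up to 75 fragments, -21.5 points (-30.2 to -12.9).

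For ROW peaks the link between strength and sharing was flatter on the X. In the weakest quartile of fold enrichment 31.5% of ROW peaks on the X overlapped BEAF-32, against 21.5% on the arms, a difference of 10.01 percentage points (4.01 to 16.5). The second quartile gave 38.2% on the X, against 38.0%. In the third, between 4.12 and 8.09-fold, the order was the other way round, with 38.0% on the X, against 50.2% on the arms, a difference of -12.2 points (-17.5 to -6.58). In the highest quartile it was 56.6% on the X, against 67.8%, a difference of -11.1 points (-16.97 to -5.39). By pileup, the highest quartile again differed, with 51.2% on the X, against 66.5% (-15.3 points, -21.9 to -8.71), while the interval of the lowest, 5.24 points (-0.558 to 11.6), included 0.

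**Figure D3:**
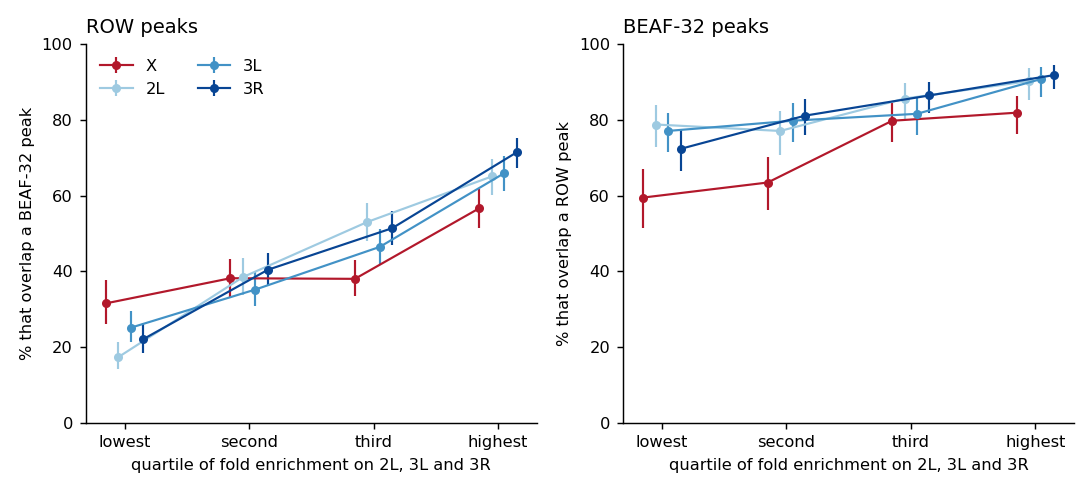
Share of ROW peaks that overlap BEAF-32 (left) and of BEAF-32 peaks that overlap ROW (right), in quartiles of fold enrichment set on 2L, 3L and 3R, for the X and each arm; bars are 95% Wilson intervals. For BEAF-32 the X lay below the 3 arms in every quartile, at 59.5% in the lowest and 81.9% in the highest, and for ROW it lay above them in the lowest quartile at 31.5% and below them in the highest at 56.6%.

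BEAF-32 peaks without ROW on the X included strong ones. Their median fold enrichment was 5.58 (5.003 to 6.27) and their median pileup 143 fragments, against 12.7-fold and 424 fragments at X peaks with ROW. On the 3 arms the medians without ROW were 5.003-fold and 118 fragments. Of the 211 on the X, 49 reached 16-fold, or 23.2%, against 17.4% on 2L, 14.1% on 3L and 17.6% on 3R. They also lay farther from ROW: the nearest ROW summit was a median of 3778 bp away on the X, against 2272 bp on 2L, 2322 bp on 3L and 2541.5 bp on 3R. For 34 of the 211, or 16.1% (11.8 to 21.7), it was over 10 kb away, against 5.80%, 8.59% and 6.82% on 2L, 3L and 3R. Only 25 of the 211, or 11.8%, had a ROW summit within 1000 bp, similar to the 12.6% of the arms.

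The neighbourhood of such sites held fewer ROW summits on the X. Between 1 and 10 kb away, a BEAF-32 peak without ROW had a mean of 2.05 ROW summits on the X, against 2.49 on 2L, 2.41 on 3L and 2.52 on 3R, and 16.6% had none, against 6.52%, 9.20% and 7.39%. BEAF-32 peaks with ROW were close to the arms, with a mean of 2.01 further ROW summits on the X, against 2.03, 2.08 and 2.01. Of these peaks 13.5% had none on the X, against 10.6%, 12.4% and 12.2% on 2L, 3L and 3R. The longest run of successive BEAF-32 peaks without ROW on the X was 6 peaks, from 19495670 to 19532975. On 2L, 3L and 3R the longest such runs were 5, 4 and 4 peaks. The longest unbroken run of BEAF-32 peaks with ROW was 19 peaks on the X, from 2039917 to 2238840, against 38 on 2L, 29 on 3L and 25 on 3R.

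The share was lower over much of the X and not in one block. Of the 21 full windows with at least 20 BEAF-32 peaks, 17 had a share below that of the 3 arms together, against 9 of 19 windows on 2L, 10 of 23 on 3L and 12 of 27 on 3R. In 9 of the 21 the whole Wilson interval lay below that level, against 2, 1 and 0 windows on 2L, 3L and 3R. The median over windows was 71.4% on the X, against 82.8%, 83.3% and 83.7%. The lowest was the first Mb, with 15 of 27 BEAF-32 peaks overlapping ROW (55.6%), followed by 13000001 to 14000000 with 27 of 43 and 19000001 to 20000000 with 26 of 41. The highest, looked up after the values were seen, was the last full window, 21000001 to 22000000, with 20 of 22 (90.9%), followed by 12000001 to 13000000 with 23 of 26.

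ROW peaks without BEAF-32 were taller on the X than on the arms, and those with BEAF-32 were lower. Among the 785 without BEAF-32 the median ROW pileup was 138 fragments on the X (123 to 148), against 92 on 2L, 106 on 3L and 103.5 on 3R. Among the 561 with BEAF-32 it was 191 fragments on the X (171 to 210), against 253, 221 and 254, and this interval meets that of 3L (190 to 246). The nearest BEAF-32 summit to a ROW peak without BEAF-32 was a median of 6229 bp away on the X, against 8750 bp on 2L, 6855 bp on 3L and 6242 bp on 3R. The 2 classes of ROW peaks were thus closer in height on the X.

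At sites of both proteins the summits were at much the same distance on the X and on the arms. The 568 overlapping pairs on the X had a median summit distance of 88 bp (80 to 96), against 88 bp on 2L, 85 bp on 3L and 82 bp on 3R. On the X 91 pairs had summits within 25 bp, 73 from 26 to 50 bp, 155 from 51 to 100 bp, 115 from 101 to 200 bp and 134 farther apart. In 3 pairs both summits were on the same base. Summits were at most 100 bp apart in 56.2% of X pairs, against 56.2%, 56.3% and 59.2%. The ROW summit lay to the left of the BEAF-32 summit in 277 pairs and to the right in 288. Distances shortened with BEAF-32 pileup, with a median of 115 bp in its lowest quartile and 77 bp in its highest on the X, against 115 bp and 75 bp on the 3 arms.

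**Figure D4:**
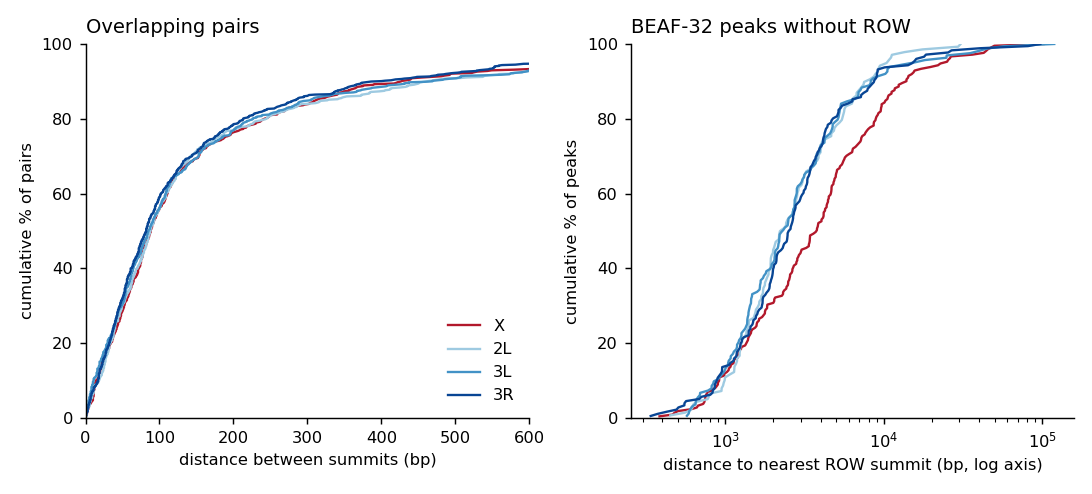
Cumulative share of overlapping pairs by the distance between their summits (left) and of BEAF-32 peaks without ROW by the distance to the nearest ROW summit on a log axis (right), for the X and each arm. The curves of the pairs lie on each other, with medians from 82 to 88 bp, and the X curve of BEAF-32 peaks without ROW is close to the others up to about 1000 bp and lies to their right at its median of 3778 bp.

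At X sites with both proteins the heights were nearly unrelated. Across the 568 X pairs the pileups of both proteins had a Spearman's rho of 0.05 and a Pearson's r, on log2 pileups, of 0.03, against rho of 0.17 on 2L, 0.17 on 3L and 0.13 on 3R. On fold enrichment rho was 0.10 on the X, against 0.15, 0.15 and 0.12. These are descriptions over pairs from the same 2 lists, and all are weak. The median ROW pileup under the highest quartile of BEAF-32 pileup was 196 fragments on the X (171 to 243), against 321.5 on 2L, 359 on 3L and 325.5 on 3R. Under the lowest BEAF-32 quartile it was 226 fragments on the X (150 to 314), against 141, 179 and 203. On each arm the median ROW pileup was thus higher in the highest BEAF-32 quartile than in the lowest. The rise over quartiles was steady on 2L and 3R but not on 3L, where the third quartile had 164 fragments, below its lowest. On the X the medians of the lowest and highest quartiles lay within each other's intervals. This depended on the measure. Over quartiles of BEAF-32 fold, the median ROW fold on the X was 4.95 in the lowest and 6.13 in the highest. On the 3 arms together it was 4.99 and 7.45, and these medians have no intervals.

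**Figure D5:**
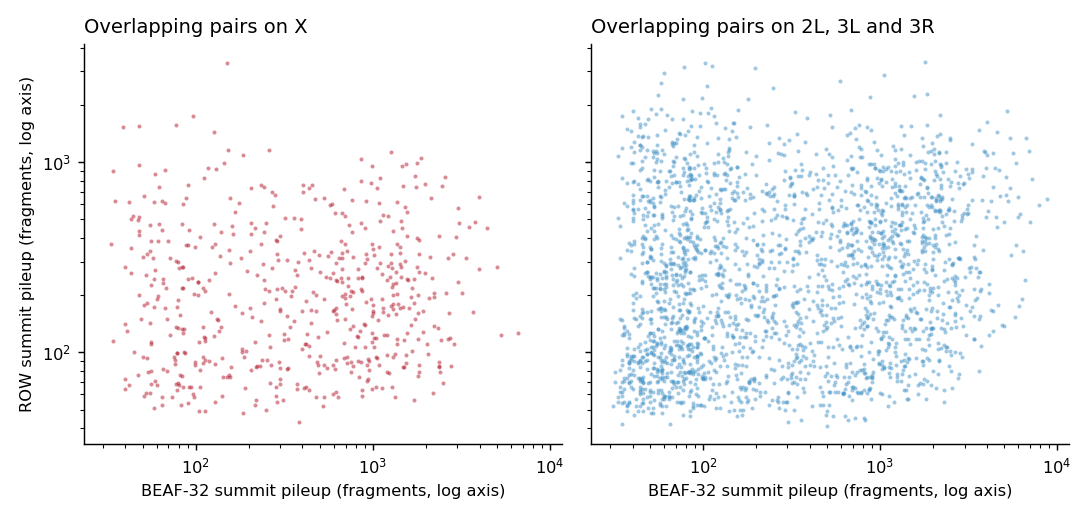
ROW summit pileup (vertical) against BEAF-32 summit pileup (horizontal), in fragments on log axes, for overlapping pairs on the X (left, 568 pairs) and on 2L, 3L and 3R (right, 2300 pairs); each point is a pair. ROW heights show little slope with BEAF-32 height on the X, with a Spearman's rho of 0.05.

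The strongest ROW site of the X lay in its last, incomplete window. It ran from 22027276 to 22027857, with 27.4-fold enrichment, a pileup of 761 fragments and a BEAF-32 summit 2 bp away. The next by fold, from 1129169 to 1129871, had 22.6-fold enrichment and 2073 fragments, with no BEAF-32 overlap and 1197 bp between its summit and the next one of BEAF-32. The remaining 3 of the 5 strongest all overlapped BEAF-32, with summits 87 to 128 bp apart: 10793054 to 10793769 at 22.2-fold, 6737866 to 6738551 at 21.7-fold and 2156323 to 2157043 at 21.7-fold. Of the 5 strongest BEAF-32 peaks 4 overlapped ROW. The strongest, from 1235731 to 1236414, had 34.1-fold enrichment, 5015 fragments and a ROW summit 241 bp away. The exception, from 926964 to 927435, had 33.7-fold enrichment and 2031 fragments, and its nearest ROW summit was 19638 bp away.

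Overlapping pairs on the X were ordered by the sum of their ROW rank and their BEAF-32 rank by fold. The pair with the smallest sum of ranks had a ROW peak from 14720019 to 14720669 that ranked 35 on the X at 16.3-fold, and a BEAF-32 peak from 14720005 to 14720633 that ranked 4 at 31.7-fold. Its summits were 24 bp apart. The next pair, with a ROW peak from 652737 to 653505, ranked 31 for ROW and 38 for BEAF-32, with summits 11 bp apart. In the pair at 10793054 to 10793769 ROW ranked 3 while BEAF-32 ranked 104 at 24.9-fold.

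Of the 5 strongest ROW peaks with no BEAF-32 overlap and no BEAF-32 summit within 1000 bp, the one farthest from BEAF-32 was 11317117 to 11317631 at 18.3-fold and 482 fragments, 31079 bp from the next BEAF-32 summit. Besides the peak at 1129169 to 1129871, the others of these 5 were 20067092 to 20068188 at 19.5-fold, 5629012 to 5629841 at 18.2-fold and 17738574 to 17739191 at 18.0-fold, with BEAF-32 summits 2568 to 3735 bp away. After the peak at 926964 to 927435, the strongest BEAF-32 peaks chosen in the same way were 10354448 to 10355023 (30.7-fold, 1655 fragments), 18264670 to 18265293 (29.99-fold, 2679 fragments), 8500133 to 8500696 (29.0-fold) and 18787466 to 18787980 (28.9-fold). The last had its nearest ROW summit 9605 bp away. These single sites have no replicate check.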

How the data were processed

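ROW and BEAF-32 ChIP-seq peaks of S2 cells came as 1 list per antibody for 3 samples each, grouped by sample title (for BEAF-32 the antibody label counts upward across samples whose titles name 1 antibody). Bowtie2, SAMtools, MACS2, deepTools and build dm3 are named, without roles, per the submitters' processing notes. Pooling and the control are not given in the sources used here. The deposited lists were read as narrowPeak: fold enrichment (a ratio) in column 7, −log10 p and −log10 q after it; the deposited display score follows −log10 q and was not used.

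Pileup k and background b were solved from (k + 1)/(b + 1) = fold and the Poisson probability of more than k fragments = p, within 0.01 in −log10 p. Tested on simulated data, this returned 99.975% of 4000 pileups. Depth per sample is unknown. Shares have Wilson, differences Newcombe, density ratios exact binomial and medians order-statistic 95% intervals. Intervals of log2 ratios of medians set the limits of the X median over the median of the arms, taken as exact. Peaks were named as the 5 strongest on the X, the 5 strongest without the other protein and with no summit of it within 1000 bp, and the 5 pairs of smallest rank sum, with the 3 densest, sparsest and least shared windows and the 3 longest free stretches. Members, lists and rules were chosen with earlier results of these data known. No genome or annotation of dm3 was used, so peaks have no gene or sequence. Coordinates count from 1. Python 3.11.15, numpy 2.4.6, pandas 2.3.3, scipy 1.17.1 and matplotlib 3.10.9 were used.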

Additional observations from a re-analysis of the deposited data

Results flagged for a closer look

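The lists also hold peaks on XHet, the separate sequence of X heterochromatin, which no comparison above used. There were 4 ROW peaks, from 1.997 to 13.5-fold, and 4 BEAF-32 peaks, from 4.76 to 24.8-fold, and 3 of each overlapped the other protein. They are listed because they lie outside the sequences compared, and with no control antibody to set them against, the counts are given as values only.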

How the results depend on the processing

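Of 60 recalculations over 13 results, 40 kept direction and call, and 6 of the 60 were chosen after seeing the data. Among the 40, keeping only windows with a peak could not change either density ratio, because every window of the 4 arms held peaks. The lower share of BEAF-32 peaks with ROW stayed negative, from -6.60 to -11.65 percentage points, with an interval below 0 under each alternative that has one; the values reweighted over quartiles of fold (-11.65) and pileup (-10.98) have none. The ROW density ratio, 0.885, had an interval including 1 at −log10 q of at least 10 (0.975), at 4-fold or more (0.982) and without the outermost 2 Mb (0.977), and the BEAF-32 ratio came to 1.01 under each of the last 2. The interval of the ROW share difference no longer included 0 at −log10 q of at least 10 (-4.19 points), at 4-fold or more (-6.55), without the outermost 2 Mb (-3.52) and against 3R alone (-5.71). The log2 ratio of ROW median fold turned to -0.0767 at −log10 q of at least 10, with an interval including 0, and that of ROW width came to -0.0670 there. In the second and highest fold quartiles the ROW width ratios were -0.0763 and 0.0352, and in the 3 lower quartiles the BEAF-32 ones were -0.0643, -0.0775 and 0.0626. The densest BEAF-32 window held 72 peaks per Mb with 500 kb windows, and pairs overlapping by 50% of both intervals had a median distance of 78 bp. Counting at least the pileup, not more than it, matched 8.69% of ROW and 5.41% of BEAF-32 peaks. The cause was not tested where a value moved. No paired analysis was possible because the lists hold no values per sample, and for the same reason no replicate could be left out.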

Other observations

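One short stretch of the X held several of its tallest ROW pileups on a high local background, a pattern looked for after the values were seen. A background of at least 10 times the lowest level was reached by 10 ROW peaks on the X, against 1 on 2L, 4 on 3L and 4 on 3R. Of these 10, 7 lay in 1 run from 7590945 to 7603422 and the other 3 from 12644850 to 12650478. The run held the tallest ROW peak of the arm, from 7600467 to 7601749, with 3308 fragments on a background of 459 fragments and so only 7.19-fold. Its neighbours from 7592180 to 7592768 and from 7596926 to 7597913 had 2024 and 1581 fragments at 6.56-fold and 3.10-fold. BEAF-32 overlapped 3 of the 7 peaks of this run, a share near the 41.7% of all ROW peaks on the X. None of the 16 BEAF-32 peaks on the X with a background of at least 10 times the lowest BEAF-32 level lay in this run. On fold enrichment alone none of these ROW peaks ranks among the 5 strongest of the X.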
